A study of Homo sapiens with 2 samples.

Results

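The open chromatin described here lies in gene deserts, long stretches of a chromosome without a protein-coding gene. The members are peaks of the J76 and T293 peak lists on chromosomes 1 to 22 that met 1 rule: the summit lay over 500 kb from the nearest end of a protein-coding gene and inside no protein-coding gene body. The rule found 4456 of 57429 autosomal peaks in J76 (7.76%, 95% Wilson interval 7.54 to 7.98) and 5841 of 81960 in T293 (7.13%, 6.95 to 7.30), which makes 10297 of 139389 over both lists. A peak is called shared where 1 bp or more of it lies under a peak called in the other line, and J76-only or T293-only otherwise. Wilson intervals cover counting error only.

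The study tested a laboratory-purified Tn5 transposase by ATAC-seq, in which the enzyme cuts accessible DNA and attaches sequencing adapters, with 50000 cells per reaction. J76 is labelled as a T-lymphoblastic leukemia line, and T293, written 293T in the protocol, as an embryonic kidney line; both are untreated established lines as far as the labels say. Each line had 1 library and 1 peak list, so no difference between them has a replicate check, no p-value was computed, and the line and its library cannot be told apart. The lists hold no read counts, so the depth is unknown and a site without a peak may be open below the limit of detection.

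The labels were checked on marker genes with a peak within 1 kb of a gene end. Of 10 T cell markers, 9 had one in J76 and 1 in T293, and of 8 kidney and epithelial markers, 1 had one in J76 and 8 in T293. For markers of other cells the J76 and T293 counts were B cell 0 of 4 in both lines, myeloid 0 and 2 of 4, erythroid 1 and 0 of 4, and hepatocyte 2 and 1 of 3. Some markers of other cells thus also had a peak, and these lists are short.

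Gene deserts often flank genes that control development or build neural connections, and such genes can be switched on by enhancers, short stretches of regulatory DNA that act over long distances. Many transcripts that start in deserts are long non-coding RNAs (lncRNAs), which encode no protein, and some of these are the hosts of microRNAs. A gap without coding genes also surrounds every centromere, where chromosomes are held at cell division and where the DNA consists largely of repeated satellite sequence.

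The sequences of the peaks themselves were not available here, so the sequences shown are those of the RNA starts that desert peaks covered. Promoter windows of 250 bases before to 50 bases after a start came from RefSeq (GRCh38.p14). Deserts held 641 such windows of 569 genes, all tested against the peak lists. Desert peaks covered 57 windows of 54 genes: 14 genes had a peak over a window in both lines, 12 in J76 alone and 28 in T293 alone. The same counts over all autosomal windows are not given here, so these do not show a trait particular to desert starts. Of all autosomal peaks outside gene bodies and within 1 kb of a coding gene end, 92.2% in J76 and 83.5% in T293 were shared. The 6 windows below show starts covered in both lines or in 1 of them, each 5′ to 3′ on the strand of its gene. Capitals mark a GC box (GGGCGG, bound by Sp1-type factors) or a TATA box (TATAAA), found on either strand; a window in lower case throughout holds neither. They were chosen after their values were seen, and some windows not shown had higher folds.

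MIR4458HG: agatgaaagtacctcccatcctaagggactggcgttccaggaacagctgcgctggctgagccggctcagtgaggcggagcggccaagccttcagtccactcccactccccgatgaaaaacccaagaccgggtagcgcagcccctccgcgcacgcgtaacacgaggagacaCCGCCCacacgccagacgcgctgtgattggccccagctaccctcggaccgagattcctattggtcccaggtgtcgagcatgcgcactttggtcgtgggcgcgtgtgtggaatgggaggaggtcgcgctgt

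LINC02394: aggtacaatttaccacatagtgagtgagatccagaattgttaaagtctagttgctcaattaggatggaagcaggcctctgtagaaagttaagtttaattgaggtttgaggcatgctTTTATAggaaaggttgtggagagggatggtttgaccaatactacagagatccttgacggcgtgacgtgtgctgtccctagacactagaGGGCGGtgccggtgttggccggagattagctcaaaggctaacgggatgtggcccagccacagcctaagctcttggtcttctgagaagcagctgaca

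LINC01902: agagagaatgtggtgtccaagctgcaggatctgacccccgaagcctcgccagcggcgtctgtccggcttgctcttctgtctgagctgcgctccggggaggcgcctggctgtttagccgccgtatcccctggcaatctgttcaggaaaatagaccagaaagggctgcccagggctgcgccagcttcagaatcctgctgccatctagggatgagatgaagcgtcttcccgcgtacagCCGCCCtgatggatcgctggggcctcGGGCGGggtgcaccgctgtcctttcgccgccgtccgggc

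MIR99AHG: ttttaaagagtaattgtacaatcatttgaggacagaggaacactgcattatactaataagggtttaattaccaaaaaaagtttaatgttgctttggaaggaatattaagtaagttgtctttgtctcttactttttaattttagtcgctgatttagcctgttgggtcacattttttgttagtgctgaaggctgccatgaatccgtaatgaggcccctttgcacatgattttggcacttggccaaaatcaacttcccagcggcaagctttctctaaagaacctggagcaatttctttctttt

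LINC01550: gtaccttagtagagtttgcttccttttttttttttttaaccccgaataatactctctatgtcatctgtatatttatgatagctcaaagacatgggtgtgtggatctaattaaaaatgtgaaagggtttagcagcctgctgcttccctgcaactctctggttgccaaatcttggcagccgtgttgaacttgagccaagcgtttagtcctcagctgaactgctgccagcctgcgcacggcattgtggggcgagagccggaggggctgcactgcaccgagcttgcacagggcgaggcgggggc

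LOC105375975: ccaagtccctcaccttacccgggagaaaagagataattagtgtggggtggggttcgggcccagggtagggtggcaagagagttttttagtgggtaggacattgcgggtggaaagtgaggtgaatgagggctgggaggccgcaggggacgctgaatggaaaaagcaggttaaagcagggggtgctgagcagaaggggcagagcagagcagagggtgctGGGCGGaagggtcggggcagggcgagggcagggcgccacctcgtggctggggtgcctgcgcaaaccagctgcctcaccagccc

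MIR4458HG, the host transcript of a microRNA, starts at chr5:8457437-8457736 between MTRR and SEMA5A, 557 kb from the nearest coding gene. Its window overlaps that of LINC02226 on the other strand, and its peak was shared, with a fold enrichment of 11.4 in J76 and 12.1 in T293. This fold is the authors' enrichment of the summit over background, used here only to describe and rank peaks within a list. The peak over LINC02394 (chr12:74021830-74022129, between TRHDE and ATXN7L3B) was T293-only, with a fold of 12.54, as was the peak over LINC01902 (chr18:39841459-39841758), with a fold of 9.20. LINC01902 starts 2067 kb from the nearest coding gene, the second-farthest T293 arm desert peak of all. The window of MIR99AHG, chr21:16420045-16420344, lay under a T293-only peak of fold 6.17. LINC01550 starts at chr14:97978075-97978374, between VRK1 and BCL11B, under a shared peak with folds of 7.97 in J76 and 7.09 in T293; only the wider J76 peak reached into the window. LOC105375975 (chr9:11618700-11618999, between PTPRD and TYRP1) lay under a J76-only peak of fold 6.58.

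Desert starts with a peak were richer in G and C than desert starts in general. The median GC content was 47.7% over the 57 windows with a desert peak, 39.3% over all 641 desert windows and 58.7% over all 33725 autosomal windows. Over the 15 windows with a peak in both lines it was 59.3%. A GC box was present in 20 of the 57 windows (35.1%), against 8.27% of desert windows and 45.04% of all windows. A TATA box was present in 22.8%, 33.1% and 11.6%, and the CCAAT box in 28.1%, 36.5% and 34.4%. A letter match is a description of the sequence, not of a bound factor. Such starts were a small part of the desert peaks: 24 in J76 (0.539%, 0.362 to 0.8002) and 38 in T293 (0.651%, 0.474 to 0.892) covered a promoter window, whereas 19.3% and 15.1% of the other autosomal peaks did. The rule keeps desert peaks away from the starts of coding genes, and only 641 of the 33725 windows lay in deserts. This difference therefore follows largely from how the members were chosen.

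Deserts held 32 of the 1461 autosomal microRNA hairpins in the RefSeq table. A peak summit of either line lay within 10 kb of 21 of the 32 (65.6%, 48.3 to 79.6), against 66.5% of all autosomal hairpins. The counts were 10 in J76 (31.2%, against 52.8% of all) and 17 in T293 (53.1%, against 58.0% of all), with 6 in both. Of the arm desert core described further on, 32.5% of the length lay within 10 kb of a summit of either line. Some hairpins lie side by side and share their peaks. The mature sequences below, chosen after their values were seen, belong to hairpins described next, and capitals mark the seed, bases 2 to 8, which pairs with target RNAs.

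hsa-miR-99a-5p: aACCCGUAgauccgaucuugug

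hsa-let-7c-5p: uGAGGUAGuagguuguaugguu

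hsa-miR-7977: uUCCCAGCcaacgcacca

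hsa-miR-924: aGAGUCUUgugaugucuugc

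hsa-miR-4465: cUCAAGUAgucugaccagggga

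hsa-miR-1297: uUCAAGUAauucaggug

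The genes of miR-99a and let-7c, a member of the let-7 family of differentiation-linked microRNAs, lie together inside MIR99AHG on chromosome 21. A T293-only peak of fold 4.17 lay 1.82 kb from the miR-99a hairpin and 2.56 kb from the let-7c hairpin, and J76 had 0 peaks within 10 kb of either. Between USP25 and CXADR, over 500 kb from both genes, there were 11 T293-only peaks, with folds from 2.60 to 9.77 (median 4.20), and 0 J76 peaks. Closer to these genes the same gap had 9 J76 peaks (6 J76-only) and 44 T293 peaks (41 T293-only). The miR-7977 hairpin had a T293-only peak of fold 8.78 at 0.694 kb. The miR-924 hairpin, inside MIR924HG on chromosome 18, had a J76-only peak of fold 10.6 at 5.34 kb. MiR-4465 and miR-1297 share the seed UCAAGUA and lie in different deserts, of chromosomes 6 and 13. MiR-4465 had a T293-only peak (fold 3.24), and miR-1297 a J76-only peak (3.29) and a T293-only peak (3.34) that did not overlap.

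Desert peaks fell into 3 classes by where the gap between coding genes lies, and the lines divided in opposite ways between them. Arm deserts, gaps on a chromosome arm with a coding gene on each side, held 3967 T293 peaks (67.9% of its desert peaks, 66.7 to 69.1) and 1481 J76 peaks (33.2%, 31.9 to 34.6). Centromere gaps, the gap on each chromosome that spans the centromere, held 1847 T293 peaks (31.6%, 30.4 to 32.8) and 2901 J76 peaks (65.1%, 63.7 to 66.5). Chromosome ends, past the outermost coding gene, held 27 and 74. The label gene desert therefore describes most T293 members as usually understood, whereas most J76 members lie around centromeres. The classes rest on approximate centromere positions from general knowledge and were set after the data were seen.

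**Figure D1:**
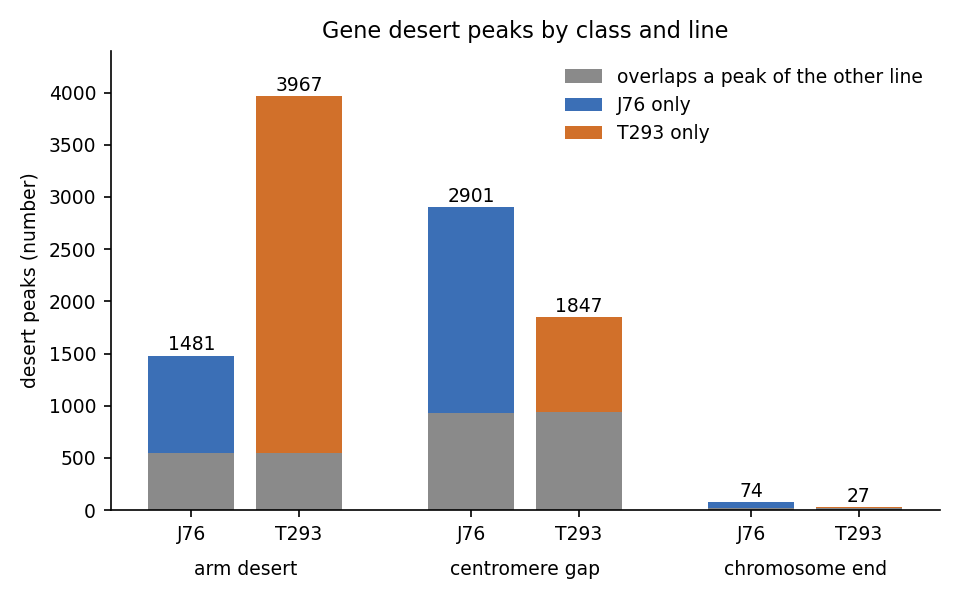
Number of gene desert peaks (vertical axis) in each line, by class of desert (horizontal axis); grey parts overlap a peak of the other line and coloured parts do not. T293 has 3967 arm desert peaks against 1481 in J76, and J76 has 2901 centromere gap peaks against 1847 in T293.

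There were 2.68 T293 peaks for each J76 peak in arm deserts and 0.637 in centromere gaps, against 1.44 among the autosomal peaks outside deserts. The size of the arm difference moved with how deep into the lists it was counted. Among peaks whose −log10 q reached 5 it was 2.22 (1.33 outside deserts), and among those that reached 10 it was 1.90 (1.26 outside deserts). With the same number of autosomal peaks from each list, it was 1.31 (1.03 outside deserts). In centromere gaps J76-only peaks outnumbered T293-only peaks under each of these cuts, 1971 to 904 over all peaks and 530 to 173 where −log10 q reached 10.

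Desert peaks were shared between the lines less often than peaks in general. In J76, 1501 of 4456 (33.7%, 32.3 to 35.1) were shared, against 52% of all autosomal J76 peaks. In T293, 1513 of 5841 (25.9%, 24.8 to 27.0) were shared, against 36.3% of all autosomal T293 peaks. The classes differed here too. In arm deserts 37.1% of J76 peaks (34.7 to 39.6) and 13.8% of T293 peaks (12.8 to 14.9) were shared, and in centromere gaps 32.1% (30.4 to 33.8) and 51.1% (48.8 to 53.3).

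Desert peaks were weaker than other peaks, with a median fold of 4.09 against 4.89 in J76 and 3.76 against 4.38 in T293, and outside deserts weak peaks were shared less often than strong ones. Peaks outside deserts were therefore weighted to the arm desert peaks' spread over 10 bins of −log10 q, each with an equal part of the list. They then had a shared share of 38.8% in J76, next to 37.1% observed in arm deserts, and of 21.5% in T293, next to 13.8%. In T293 the arm desert share was below that of other peaks in each of the 10 bins. It was 45.2% against 91.4% in the strongest bin, which held 42 arm desert peaks. In J76 it was above in 4 bins and below in the others, and 13 arm desert peaks in the strongest bin had a share of 61.5% against 97.6%. T293 centromere gap peaks went the other way, at 51.1% against a weighted 23.6%, and those of J76 had 32.1% against 39.0%. Over all desert peaks the share was 33.7% against a weighted 39.2% in J76, and 25.9% against 22.2% in T293. The lower share of T293 desert peaks as a whole therefore did not hold against other peaks of the same strength, and in 7 of the 10 bins it was the higher one.

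Among peaks outside protein-coding gene bodies, sharing fell with distance from genes. Peaks inside gene bodies were counted apart, and 49.9% of 23748 in J76 and 31.5% of 37413 in T293 were shared. Outside centromere gaps, 83.5% of T293 peaks within 1 kb of a coding gene end were shared, 42.0% at 1 to 10 kb, 28.7% at 50 to 100 kb, 19.2% at 250 to 500 kb, 14.9% at 500 kb to 1 Mb and 12.6% (10.8 to 14.7) over 1 Mb. In J76 the share fell from 92.2% to 51.1%, 42.0% and 35.6% over the first 4 of these classes, and then stood at 37.2% (34.5 to 40.1) and 35.3% (30.9 to 40.01). With centromere gaps included, the T293 share over 1 Mb was 33.7%.

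**Figure D2:**
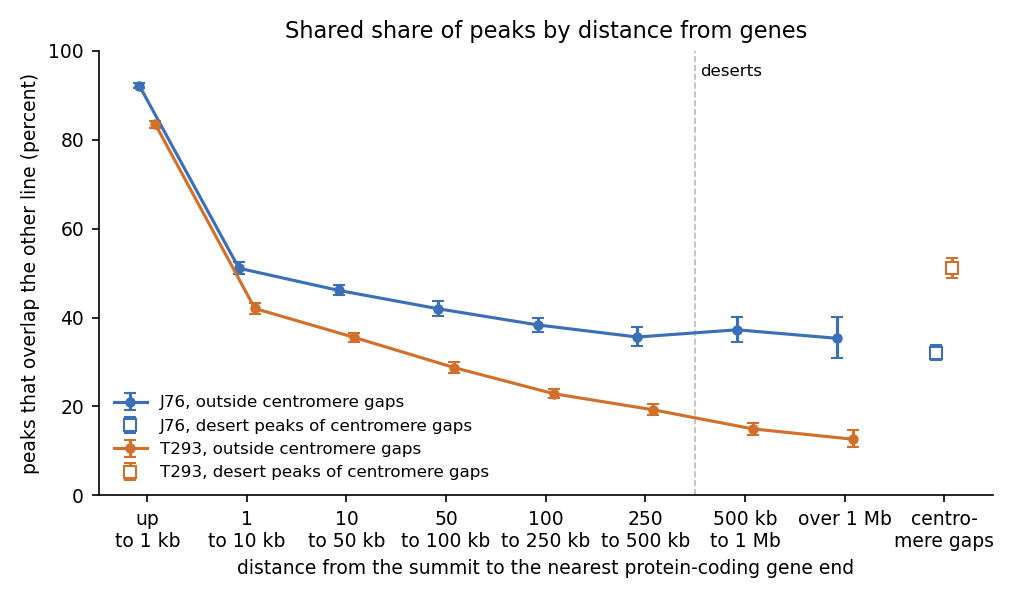
Percent of peaks that overlap a peak of the other line (vertical axis) by distance from the nearest protein-coding gene end (horizontal axis). Peaks inside gene bodies are left out, and shares are not weighted for peak strength. Bars are 95% Wilson intervals, and open squares are the desert peaks of centromere gaps. T293 falls to 12.6% beyond 1 Mb while J76 levels near 35.3%, and in centromere gaps T293 (51.1%) stands above J76 (32.1%).

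The peaks nearest the 500 kb line are given as a description. The 3 J76 peaks just inside it, at 500.1 to 500.2 kb, had folds of 3.13 (CDH11 to CDH5), 8.60 (IRX1 to ADAMTS16) and 7.12 (SEMA3D to GRM3), and the 3 just outside had 4.17, 5.49 and 3.73. In T293 the 3 just inside had 6.42 (MCTP2 to NR2F2), 3.34 (RGMA to MCTP2) and 4.17 (EDIL3 to COX7C), and the 3 just outside had 6.89, 2.83 and 2.71.

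Arm deserts numbered 279, with gaps of up to 4.86 Mb (median 1.54) and 213.7 Mb of sequence beyond 500 kb from a gene, called the core here. J76 had 6.93 peaks per Mb of core and T293 18.6, against 21.6 and 31.0 per Mb outside deserts. Within 500 kb of the flanking genes, in the same gaps, the densities were 10.4 and 20.2 per Mb, and T293 had 1.94 peaks for each J76 peak. The move from shoulder to core thus took J76 down further than T293. Of the 279 deserts, 175 had more T293-only than J76-only core peaks, 51 had more J76-only peaks, 17 had equal numbers above 0, and 31 had no peak in either line. Among peaks whose −log10 q reached 10 the first 2 counts were 136 and 47, and with lists of the same length 124 and 96. Among the 175 deserts, the shoulders also had more T293-only peaks in 149 and more J76-only peaks in 18. Among the 51, they had more J76-only peaks in 21 and more T293-only peaks in 24.

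Chromosomes 13 and 1 held the densest T293 deserts. On chromosome 13 T293 had 722 arm desert peaks (43.8 per Mb of core) and J76 had 62 (3.76 per Mb), a ratio of 11.6, with 2.28 outside deserts. On chromosome 1 T293 had 463 (36.9 per Mb) and J76 67 (5.34 per Mb), a ratio of 6.91, with 1.79 outside deserts. Of the 18 chromosomes with at least 10 J76 arm desert peaks, 15 had a higher T293 to J76 ratio in arm deserts than outside deserts. The exceptions were chromosomes 14 (81 J76 and 66 T293 peaks), 16 (13 and 9) and 21 (63 and 61), which were also the 3 with more J76 peaks. Of the chromosome 21 peaks, 32 of J76 and 23 of T293 lay in LOC102723475 to LOC101927345, a desert with ribosomal RNA genes described further on. The small J76 surplus of chromosome 21 thus rested on that desert. Without chromosome 13 the ratio over all arm deserts was 2.29. The number of copies of each chromosome in these lines was not measured, and its part in these densities was not tested.

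**Figure D3:**
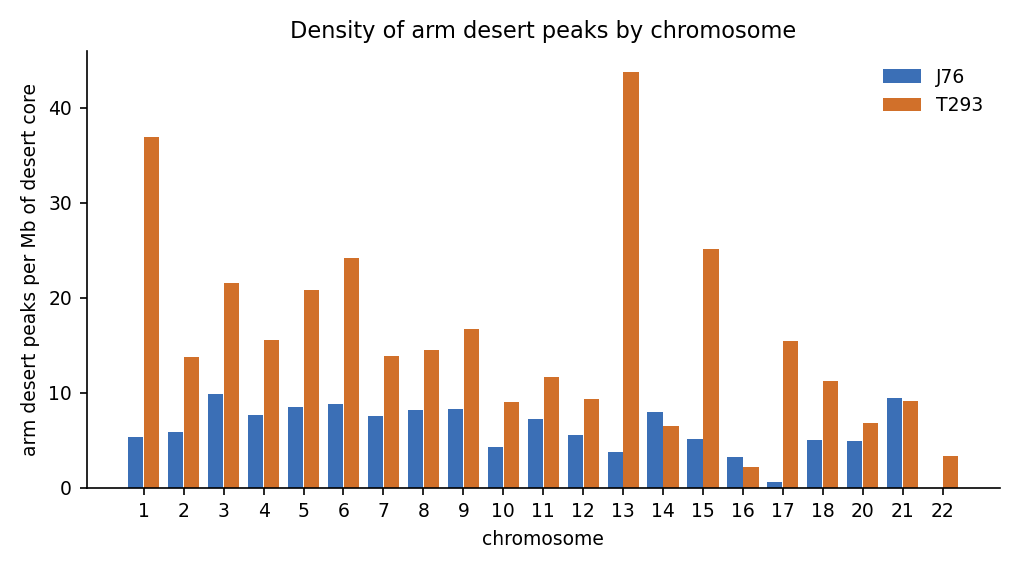
Arm desert peaks per Mb of desert core (vertical axis, starting at 0) on each chromosome with an arm desert (horizontal axis), for J76 in blue and T293 in orange. T293 reaches 43.8 per Mb on chromosome 13 and 36.9 on chromosome 1, where J76 has 3.76 and 5.34.

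Several of the deserts with the largest T293 surplus lay beside genes of neuronal adhesion. Deserts beside listed genes of neuronal adhesion and signalling made up 43.2% of the core length. Of these 78 deserts, 53 (67.9%) had more T293-only than J76-only peaks, next to 62.7% of all arm deserts. SLITRK5 to GPC5 on chromosome 13, between a synaptic adhesion gene and a glypican gene, had 128 T293-only, 1 J76-only and 4 shared peaks. The T293-only peaks were spread along the core, 500.4 to 3214 kb from GPC5, with folds from 2.61 to 8.67 (median 3.45). With both lists cut to a −log10 q of 10 or more, T293-only peaks numbered 9 and J76-only peaks 2. LOC647264 to PCDH9, beside a protocadherin gene, had 105 and 1, or 11 and 0 at that cut. PCDH20 to LOC112267897 had 98 and 5, and SPRY2 to SLITRK1 98 and 5 with 9 shared. On chromosome 1, PLA2G4A to BRINP3 had 104 and 6, or 7 and 0 at that cut, and CDC73 to KCNT2 had 86 and 11. Large counts were also found in MAT2B to TENM2 (88 T293-only and 8 J76-only), AGA to TENM3 (75 and 15), OTOL1 to SI (73 and 12) and PCDH9 to KLHL1 (85 and 2).

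**Figure D4:**
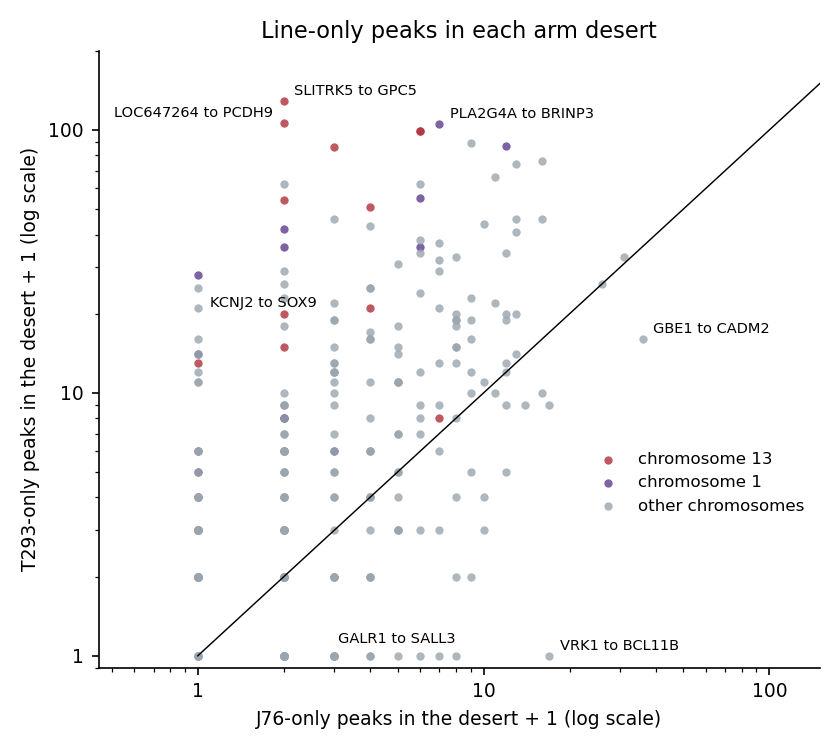
T293-only (vertical axis) against J76-only peaks (horizontal axis) in each arm desert, both plus 1 on log scales; the line marks equal numbers and colours mark chromosomes 13 and 1. Most deserts lie above the line, led by SLITRK5 to GPC5 (128 and 1), while VRK1 to BCL11B (0 T293-only and 16 J76-only) and GALR1 to SALL3 (0 and 7) lie below it.

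J76 had the surplus in a smaller set of deserts. The clearest adjoined BCL11B, a transcription factor gene needed for commitment to the T cell lineage, whose mouse counterpart is known to have a distal enhancer in the desert beyond its 3′ end. VRK1 to BCL11B held 18 J76 peaks, of which 16 were J76-only, and 2 T293 peaks, both shared. The J76-only peaks had folds from 2.84 to 7.46 (median 4.75) and lay 945 to 1566 kb from BCL11B. The strongest was at chr14:98103707-98104051 (fold 7.46), inside the lncRNA LOC105370655. Next came chr14:97777095-97777958 (7.23), inside LOC105370651, and chr14:98223823-98224152 (6.56), inside LOC105370656. Of the 16, 7 formed a run at chr14:98167333-98210949, 43.6 kb long, next to LINC02295, with folds of 2.84 to 6.07. With both lists cut to a −log10 q of 10 or more, the desert had 10 J76-only and 0 T293-only peaks. The gene itself went the other way: within BCL11B and 50 kb of its ends there were 13 T293-only peaks, 1 J76-only peak and 6 shared.

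GALR1 to SALL3 on chromosome 18, beside the gene of a zinc finger transcription factor, had 7 J76-only and 0 T293 peaks. It held the strongest J76-only desert peak, at chr18:77899902-77900612, with a fold of 14.7, and another of 8.09 at chr18:78238417-78239737. The shoulders had 15 J76-only and 0 T293-only peaks. GBE1 to CADM2, beside a synaptic adhesion gene on chromosome 3, had 35 J76-only, 15 T293-only and 3 shared peaks. This surplus was of weak peaks (median fold 3.51 against 4.38 for the T293-only peaks) and came to 3 and 3 at that cut. HS6ST1 to RAB6C had 8 J76-only, 1 T293-only and 1 shared peak.

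Among 29 deserts beside developmental transcription factor genes, 20 had a T293 surplus (69.0%) and 6 a J76 surplus, next to 62.7% with a T293 surplus over all arm deserts. These 29 had 2.59 T293-only peaks for each J76-only peak, and all arm deserts 3.67. KCNJ2 to SOX9, known for long-range enhancers of SOX9, a regulator of cartilage and gonad development, had 24 T293-only and 0 J76 peaks. Those 24 had folds of 3.13 to 9.90 (median 4.49) and lay 505 to 1265 kb from SOX9. At the same cut the desert had 10 T293-only and 0 J76-only peaks. MCTP2 to NR2F2, beside an orphan nuclear receptor gene, had 30 T293-only and 4 J76-only peaks, and NR2F2 to ARRDC4 on its other side 15 and 0. ARRDC3 to NR2F1, beside the gene of the related receptor, had 32 and 7. SLC35B3 to TFAP2A, beside the gene of a factor of neural crest and epithelia, had 18 and 2. IRX1 to ADAMTS16, beside an Iroquois homeobox gene, had 4 T293-only and 11 J76-only peaks. These deserts were picked from the list after their counts were seen.

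**Figure D5:**
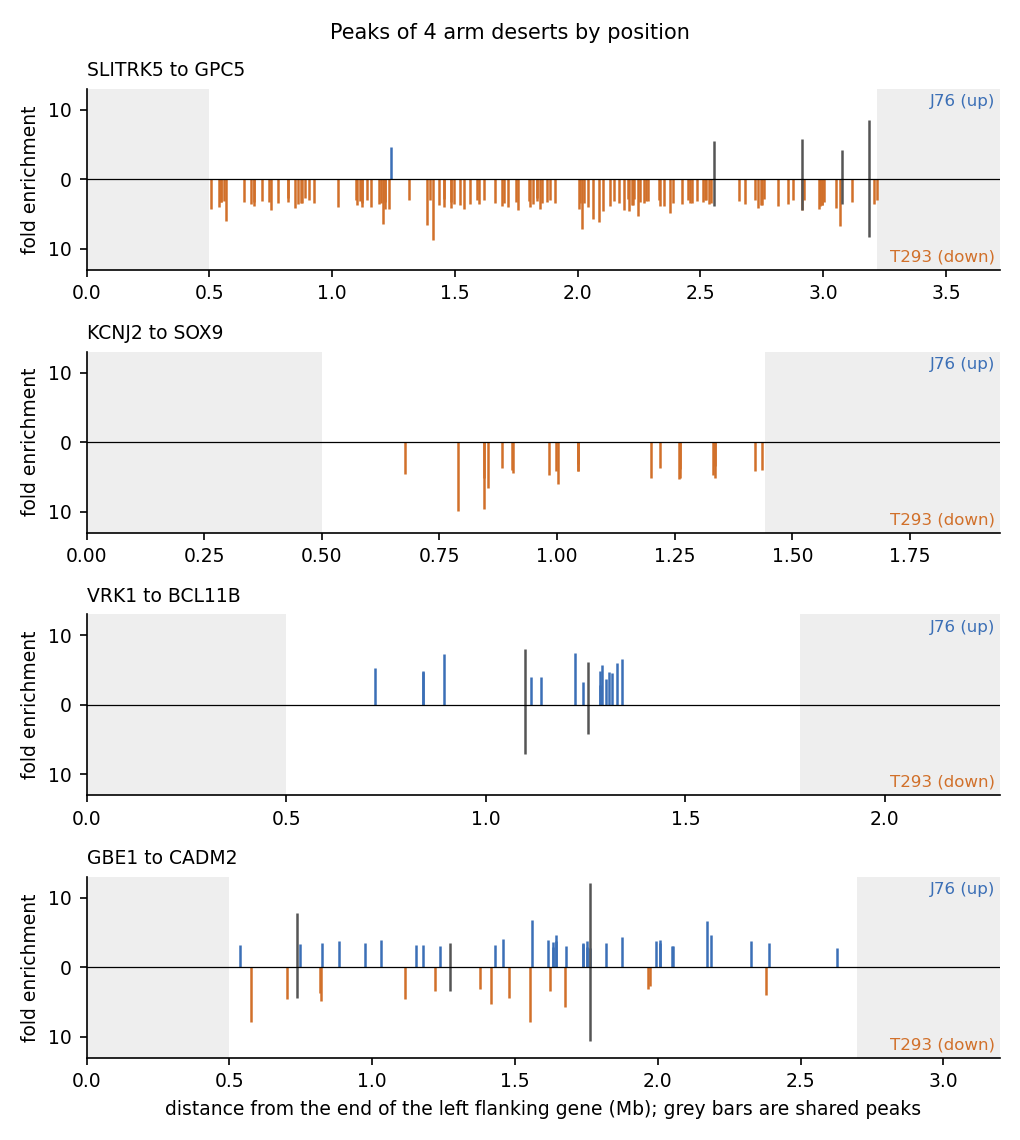
Fold enrichment of each peak (vertical axis, J76 upward and T293 downward) by distance from the left flanking gene in Mb (horizontal axis) in 4 arm deserts; grey bars are shared peaks and shaded ends lie within 500 kb of a gene, where peaks are not drawn. SLITRK5 to GPC5 has 128 and KCNJ2 to SOX9 24 T293-only peaks, VRK1 to BCL11B has 16 and GBE1 to CADM2 35 J76-only peaks.

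Over the whole list of 146 developmental transcription factor genes, 27 flanked 29 arm deserts with 7.75% of the core length. These held 94 J76-only peaks (10.1% of all J76-only arm desert peaks) and 243 T293-only peaks (7.11%). Of 109 genes of neuronal adhesion and signalling, 68 flanked 78 deserts with 43.2% of the core length, 371 J76-only peaks (39.8%) and 1667 T293-only peaks (48.8%). The T293 share rested on chromosome 13: without it, these deserts had 40.6% of the length, 39.1% of the J76-only and 37.8% of the T293-only peaks. Of 50 T lineage genes, 7 flanked 7 deserts with 2.36% of the length, 38 J76-only peaks (4.08%) and 36 T293-only peaks (1.05%). T293-only peaks were the more numerous in 3 of these 7 deserts and J76-only peaks in 2. Without VRK1 to BCL11B the list had 22 J76-only and 36 T293-only peaks, with shares of 2.40% and 1.05% on 1.76% of the length. That desert held 16 of the 38 J76-only peaks. GATA3 to CELF2, beside a gene of both the T cell and the kidney list, had 7 J76-only, 17 T293-only and 3 shared peaks, and was the only desert of 24 kidney development genes. No share of a list was tested against chance.

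Within arm deserts, the strongest T293-only peak lay at chr14:82642408-82642979, 0.047 kb from LINC02301 in the desert from SEL1L to LOC124903401, with a fold of 17.8. The next, at chr7:52159291-52160058 between COBL and POM121L12, had a fold of 17.6, and the same desert held the second-strongest J76-only arm desert peak, at chr7:52328105-52328886 with a fold of 11.4. After these in arm deserts came chr13:86542078-86542535 between SLITRK6 and LOC124900338 (13.7), the LINC02394 peak (12.54) and chr5:104179070-104179467 between NUDT12 and EFNA5 (11.9). Among J76-only arm desert peaks, those of GALR1 to SALL3 and COBL to POM121L12 were followed by chr3:162133884-162135171 between OTOL1 and SI (11.2), chr2:82875681-82876533 between CTNNA2 and SUCLG1 (10.8) and chr2:59326239-59327594 between FANCL and LOC124906010 (10.8). The arm desert named for COBL thus had a strong line-only peak in each line, at different sites.

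Shared arm desert peaks had summits at nearly the same place in both lines. The 550 J76 peaks had a median summit distance of 33 bp from their T293 partner, and 90.4% lay within 250 bp. Sharing was defined by overlap, and shared arm desert peaks had median widths of 314.5 bp in J76 and 384 bp in T293. Close summits thus follow in part from the definition. Across these pairs the log2 folds had a Pearson r of 0.53 and a Spearman rho of 0.46. These are given as a description, since both lists come from the same caller, whose settings are not given. The strongest included chr18:71212299-71212682 between SOCS6 and CBLN2 (14.4 in J76 and 15.4 in T293), chr5:25713250-25714041 between CDH10 and CDH9 (14.6 and 7.72) and chr14:48284942-48285593 between MDGA2 and RPS29 (12.8 and 4.38). In T293 chr4:179867294-179867813 between AGA and TENM3 had 12.9 (9.66 in J76).

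Arm desert peaks lay near non-coding RNA genes about as often as the length of those genes would give. Such a gene was within 10 kb of 30.8% of J76 peaks (28.5 to 33.2) and 30.9% of T293 peaks (29.5 to 32.3), and these windows covered 29.5% of the core length. Over all desert peaks the shares were 11.7% (10.8 to 12.7) and 21.7% (20.7 to 22.8), with 1.41% and 1.95% in centromere gaps. All autosomal peaks had 32.2% and 31.5%. Shared and line-only arm desert peaks were alike in this, at 32.0% and 30.1% in J76 and 31.8% and 30.7% in T293, with overlapping intervals.

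Of 979 lncRNA genes that reach into an arm desert core, 406 (41.5%) had a peak there in their body: 149 had arm desert peaks of both lists, 193 of T293 alone and 64 of J76 alone. Over all arm deserts T293 had 2.68 peaks for each J76 peak. No share for lncRNA genes elsewhere is given here, so these counts do not show a trait of these genes. Bodies of non-coding RNA genes held 21.5% of J76 and 22.3% of T293 arm desert peaks on 22.8% of the core length. LINC03000, 765.0 kb long in the desert from MAT2B to TENM2, had the most, with 34 T293-only, 1 J76-only and 5 shared peaks. LOC105371657 on chromosome 1 had 31 and 1, and LOC124904475 had 21 and 3. LINC01122 on chromosome 2 had 12 and 1, and MIR924HG 10 and 2. LINC00448 on chromosome 13 had 11 T293-only peaks and 0 of J76.

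T293 arm desert peaks stood closer together than those of J76. Runs of at least 3 peaks with steps of at most 12500 bp between summits held 1138 T293 peaks (28.7%) in 297 runs, and 127 J76 peaks (8.58%) in 29. The longest T293 runs were 18 peaks over 113.7 kb at chr13:62299729-62413474 between PCDH20 and LOC112267897, all T293-only, and 15 over 96.1 kb at chr1:191546029-191642167 between BRINP3 and RGS18, of which 14 were T293-only. The longest J76 runs were 20 peaks at chr21:8366269-8453909 and 12 at chr2:89820175-89841237, in repeated loci described next, followed by the 7 peaks near BCL11B. More peaks per Mb give more runs at a fixed step, and no correction for density was made.

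Other arm deserts and 1 chromosome end hold repeated gene families rather than empty sequence. The run on chromosome 21 lay over 8 ribosomal RNA genes at chr21:8389035-8446572, templates of the ribosome's RNA that exist in many near-identical copies. Within 10 kb of them J76 had 17 peaks (11 shared) with folds of only 1.30 to 1.82 and T293 11 (10 shared) with folds of 1.31 to 2.81. The run on chromosome 2 lay among 5 immunoglobulin kappa V segments (J76 18 peaks, T293 24, 13 shared in each). The chromosome 14 end past TMEM121 holds the variable segments of the immunoglobulin heavy chain locus. Of 73 J76 peaks there, 71 lay within the span of 48 V segments at chr14:105939754-106875017, and 53 of the 73 were J76-only, with a highest fold of 12.1 at chr14:106061896-106062387. T293 had 24, of which 20 were shared and 4 T293-only, with a highest fold of 9.34. The other chromosome end with peaks, past B3GAT1 on chromosome 11, had 1 J76 and 3 T293 peaks. The sources used here do not say how reads that fit several copies were counted, and its part in these peaks was not tested.

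Centromere gaps had 25.7 J76 and 17.2 T293 peaks per Mb of core in the 18 gaps with a gene on each side. J76-only peaks outnumbered T293-only peaks in 18 of the 22 gaps. Large counts were found on chromosome 1, LINC02798 to H3-7, with 208 J76-only, 62 T293-only and 221 shared J76 peaks, and on chromosome 19, ZNF254 to UQCRFS1, with 211, 57 and 158. ZNF37A to ZNF33B on chromosome 10 had the largest J76 surplus, 231 to 67, and 117 to 2 where −log10 q reached 10. ZNF716 to LOC124901649 on chromosome 7 was the strongest exception, with 17 J76-only and 200 T293-only peaks, or 1 and 45 at that cut. CWH43 to DCUN1D4 on chromosome 4 had 14 and 58, and OR4C12 to OR4C46 on chromosome 11 had 97 and 91 with only 3 shared. The lines thus differed by chromosome within this class. How reads that fit several copies of a repeat were counted is unknown here too. Its part in the centromere gap peaks and in the J76 surplus was not tested.

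The strongest J76 desert peaks were shared and lay in the centromere gap of chromosome 17, KCNJ18 to WSB1. They reached a fold of 21.1 in J76 and 17.5 in T293 at chr17:25919972-25920446, and 19.2 and 17.5 at chr17:22521281-22521599, next to a mitochondrial pseudogene. In centromere gaps 70.3% of J76 peaks and 59.8% of T293 peaks stood in runs, the longest with 92 J76 peaks over 392.6 kb at chr1:124391782-124784374 and 39 T293 peaks over 91.3 kb at chr1:143184609-143275940. The 930 shared J76 peaks there had a median summit distance of 37 bp from their partner. The members farthest from a coding gene lay in the gap before OR11H1 on chromosome 22, at up to 4955 kb in J76 and 4841 kb in T293. Outside centromere gaps, the farthest lay 2273 kb away in J76 and 2081 kb in T293, both between PCDH7, a protocadherin gene, and ARAP2.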

How the data were processed

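ATAC-seq peaks of 1 J76 and 1 T293 library were used, 50000 cells per reaction. The authors used Bowtie2 and MACS2, per the submitters' processing notes. For versions, settings and the genome build nothing is given in these sources. Contig names in the lists belong to GRCh38. For each peak the deposited lists give a fold enrichment of the summit over background, −log10 p and −log10 q values, and a score, which is 10 times −log10 q, all set by the authors' peak caller. No read counts were given, so depth and its precision are unknown.

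Distances were computed in Python 3.11.15 (pandas 2.3.3, numpy 2.4.6) from 18969 protein-coding genes on chromosomes 1 to 22 (RefSeq, GRCh38.p14), leaving out 153 on contigs outside the chromosome sequence. Intervals are 95% Wilson intervals (scipy 1.17.1), and the functions were tested on simulated data. Named by rule were the 5 peaks with the highest fold per group, the 3 just inside and outside 500 kb and the 3 farthest from genes per line, the 10 deserts with most peaks, the 5 with the largest surplus of each line, and the 3 longest runs per line. The same rule within arm deserts, and other deserts and genes named, were chosen after values were seen. Members and lists were chosen with earlier results of these data known. Alternatives covered strength, list length, distance, the gene set, the deserts used and the definition of sharing. Promoter and microRNA sequences came from RefSeq tables of the same assembly, and other genome sequence was not used here. Results on a few loci are not reported here.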

Additional observations from a re-analysis of the deposited data

How the results depend on the processing

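No paired analysis was possible because each line had 1 library. With centromere gaps left out (chosen after seeing the data), J76 had 1555 desert peaks, the desert shares were 2.71% of J76 and 4.87% of T293 peaks, and the shared shares 36.7% and 14.3%. Without the longest gap on each chromosome J76 had 1946, the desert shares were 3.39% and 4.93%, and the T293 shared share 16.5%. At a −log10 q of 5 or more the counts were 2950 in J76 and 3243 in T293, the desert shares 6.51% and 5.45%, and the T293 shared share 31.9%. At 10 or more they were 1337 and 1369, 4.46% and 3.66%, with shared shares of 36.7% and 35.9% and non-coding RNA genes within 10 kb of 14.8% and 23.8%. With lists of equal length T293 had 3074 (5.35%), and the shared shares were 25.6% in J76 and 36.8% in T293. Over 250 kb T293 had 9562, the desert shares were 11.4% and 11.7%, and the T293 shared share 23.8%. Over 1 Mb the counts were 2831 and 2629, the desert shares 4.93% and 3.21%, and the shared shares 31.0% and 33.7%. Without provisional LOC genes the desert shares were 8.28% and 7.72%. Deserts bounded on both sides gave J76 7.11%, with 35.2% shared. Reciprocal overlap of 50% gave shared shares of 26.6% and 20.3%, and summits within 250 bp 31.1% and 23.7%. Without chromosome 13 (also chosen after seeing the data) T293 had a desert share of 6.48% and a shared share of 28.9%. A non-coding RNA gene lay within 50 kb of 20.6% and 36.1%. The cause of these moves was not tested beyond what each setting leaves out.

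The desert share was higher in J76 in 10 settings and in T293 in 3: over 250 kb, without the longest gaps and without centromere gaps. The shared share was higher in J76 in 13 settings and in T293 in 2, lists of equal length and over 1 Mb. Measuring from the peak edge moved none of these values beyond its interval. Adding the genes on contigs changed none of them. Those genes were added at their positions on the contig, all below 6 Mb, so this setting cannot show what their true places would change. Depth is unknown, so how far it limits the weaker peaks could not be measured.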
